A study of Homo sapiens with 12 samples.

Results

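The nuclear genes for subunits of the respiratory chain and ATP synthase were followed in A375, an established human melanoma line with mutant BRAF, after 24 h with 2 inhibitors given alone or together. The members were chosen by name from the count table: symbols that begin with the NDUF, SDH, UQCR, COX4 to COX8 and ATP5 stems, with antisense names and names of the pseudogene form left out. The pattern matched 88 names, 2 were left out, and 86 members of 26475 genes remained. By name they are 37 genes of complex I, 4 of complex II, 9 of complex III, 17 of complex IV and 19 of complex V. The names bring in 3 genes that are not subunits and are counted with their name's complex: COX7A2L, a factor of supercomplex assembly, under complex IV, and ATP5S and ATP5SL under complex V. The pattern itself uses names and no measured value, but it was set with earlier results of these data known. The 4 groups were DMSO, the solvent; 1 µM XL413, an inhibitor of the replication kinase CDC7; 1 µM GSK343, an inhibitor of the Polycomb methyltransferase EZH2; and GSK343+XL413, 1 µM of each. Each group had 3 libraries of poly-A RNA, which the labels call biological replicates. All 4 groups share the cell line and the 24 h, and A375 is a single established line.

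Complexes I to IV sit in the inner mitochondrial membrane and pass electrons from NADH and succinate to oxygen, and complexes I, III and IV pump protons while they do so. Complex V, the ATP synthase, lets the protons return and makes ATP. Complex I holds a catalytic core of highly conserved subunits and a larger number of accessory (supernumerary) subunits, and complex IV has a core encoded by mitochondrial DNA with a shell of small nuclear-encoded subunits around it. Complex II is encoded wholly in the nucleus. The promoters of these genes are known for sites of the nuclear respiratory factor NRF1, of ETS factors such as GABPA (NRF2 of the respiratory field) and of YY1. None of the 13 genes of mitochondrial DNA that encode the remaining subunits was in the table (0 of 13), and they were not analysed here.

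Promoter sequences were read from RefSeq (GRCh38.p14), 250 bases before to 50 after a start of each gene, and 67 of the 86 members had an entry. Some members had more than 1 window (NDUFC1 had 4), and only the first listed was searched. For NDUFA5 that window lies upstream of the gene as GENCODE places it. Each window was searched on both strands for 3 short strings: GCATGCGC, the core of the NRF1 site; CCGGAAG, an ETS site; and AAGATGGC, a YY1 site. GCATGCGC shares letters with its own reverse complement, so that matches on opposite strands can overlap. The 4 stretches are shown because they set members that did and did not change side by side: COX5B and NDUFB4 rose with the combination and hold matches, COX7C rose and holds none, and NDUFS6 holds a match and did not pass the test. Each ends before the first start that RefSeq or GENCODE gives, and capitals mark matches. COX5B is chr2:97645812-97646039, NDUFB4 chr3:120596086-120596308, COX7C chr5:86617691-86617903 and NDUFS6 chr5:1801157-1801399, all on the plus strand, and each lies upstream of the first exon.
COX5B: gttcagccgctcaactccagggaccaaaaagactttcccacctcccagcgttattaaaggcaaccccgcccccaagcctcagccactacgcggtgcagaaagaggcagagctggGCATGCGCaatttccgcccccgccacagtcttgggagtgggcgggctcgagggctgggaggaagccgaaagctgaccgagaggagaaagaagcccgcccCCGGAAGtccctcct
NDUFB4: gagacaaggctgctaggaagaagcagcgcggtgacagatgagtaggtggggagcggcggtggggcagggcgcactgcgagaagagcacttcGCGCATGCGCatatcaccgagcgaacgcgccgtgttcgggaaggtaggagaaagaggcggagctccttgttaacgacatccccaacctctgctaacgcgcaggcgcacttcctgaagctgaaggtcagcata
COX7C: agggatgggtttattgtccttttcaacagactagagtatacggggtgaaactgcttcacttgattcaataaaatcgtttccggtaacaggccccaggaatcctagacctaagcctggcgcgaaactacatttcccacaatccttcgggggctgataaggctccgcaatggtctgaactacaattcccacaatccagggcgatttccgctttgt
NDUFS6: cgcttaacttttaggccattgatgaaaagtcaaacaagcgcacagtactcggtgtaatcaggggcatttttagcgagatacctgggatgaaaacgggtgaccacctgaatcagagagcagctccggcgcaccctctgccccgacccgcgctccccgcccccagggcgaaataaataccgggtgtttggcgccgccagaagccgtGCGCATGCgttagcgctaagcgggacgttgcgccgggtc
In COX5B the NRF1 core begins 136 bases before the RefSeq start and the ETS string 37 bases before it. In NDUFB4 the capitals cover 2 overlapping NRF1 matches that begin 159 and 157 bases before the start, and in NDUFS6 the match lies on the minus strand and begins 46 bases before it.

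The NRF1 core was present in 13 of the 67 member promoters (19.4%), against 3.05% of all 35116 promoters of the same length and 5.32% of the 11963 tested genes with a promoter. The 35116 include several windows of the same gene, whereas members and tested genes count 1 window each. The ETS string was present in 19 members (28.4%), against 10.26% of all promoters and 17.91% of those of tested genes. The YY1 string was present in 11 members (16.4%), against 2.89% and 5.0%. At least 1 of the 3 was found in 33 of 67 members (49.3%), against 14.93% of all promoters and 25.47% of those of tested genes. By complex it was 14 of 31 in complex I and 8 of 12 in complex V, but 5 of 14 in complex IV. A match describes these letters only, and a window without one says nothing about the factor.

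The libraries held 31553205 to 39079931 expected counts, and 15443 genes passed the filter on low counts. Of the members, 81 passed. The 5 that did not were 4 tissue-restricted complex IV isoforms (COX4I2, COX6A2, COX6B2 and COX8C) and ATP5L2. Among markers of the melanocyte lineage, SOX10 was at 296.0 to 370.0 CPM (counts scaled to a common library size) and MITF at 36.6 to 50.5 CPM in all 12 libraries, but TYR was at 0 and PMEL, MLANA, DCT and TYRP1 were each under 1 CPM on average. Markers of endothelial cells summed to 0.978 to 2.01 CPM and those of epithelial cells to 19.1 to 25.5 CPM, nearly all of it KRT14 (18.2 to 24.3 CPM), with EPCAM and CDH1 under 1 CPM. Leukocyte markers summed to 42.5 to 49.3 CPM, nearly all of it CD68 (42.1 to 48.9 CPM), with PTPRC and CD3E under 1 CPM. All 4 fibroblast markers were at 1 CPM or more, with sums of 26.2 to 32.7 CPM. With the combination 2 of 7 tested melanocyte-lineage genes and 1 of 4 fibroblast genes rose, and none of the tested epithelial, leukocyte and endothelial genes, where 6.69% of all genes rose. Without replicate 2 of the combination 1 of 7 and 0 of 4 rose and 1 of 3 tested epithelial genes fell. The part of these markers in the results was not tested. GSK343+XL413 replicate 2 stood apart. Its log2 values departed from those of its group with an SD over genes of 0.258, against 0.126 to 0.174 in the other 11 libraries, and longer transcripts departed downward (over 12513 genes, Spearman's rho with length −0.615). In the other 11 libraries that rho ran from −0.414 to 0.533. Each library was set against the mean of the other 2 of its group. Replicate 2 of the combination is thus part of the reference for replicates 1 (0.477) and 3 (0.533). Their upward values cannot be read as departures separate from its own. Departures that went with length were also seen in GSK343 replicates 1 (−0.414) and 3 (0.465), which share a reference in the same way. Counts by complex are given with and without GSK343+XL413 replicate 2, and so are the values of several named genes. For the other named genes only the value from all 12 libraries is given.

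Transcripts of all 5 complexes were found in every group. The members took 1.093 to 1.382% of all counts, the highest share being that of GSK343+XL413 replicate 2 and the next 1.229%. Levels between genes can be compared only per length. On the scale of CPM per kb, with the median length of each gene's annotated coding transcripts, the highest member of each complex was NDUFS5 (complex I, 413 ± 37.7, SD over 12 libraries), SDHC (complex II, 480.0 ± 25.7), UQCRH (complex III, 852 ± 71.0), COX4I1 (complex IV, 534 ± 49.1) and ATP5J2 (complex V, 686 ± 65.4). ATP5J2 and ATP5B, the catalytic beta subunit (653 ± 25.4), differed by less than the SD of the first. The value of SDHC depends on the length taken, since its annotated coding transcripts run from 369 to 13566 nt. The lowest tested member was at 8.14 CPM per kb in complex I, 65.8 in complex II, 2.96 in complex III, 0.934 in complex IV and 0.131 in complex V.

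The isoforms of complex IV that are known from particular tissues were low. COX8C, a testis isoform, was at 0 in all 12 libraries. COX4I2, the lung isoform, had at most 1 count, COX6A2, the heart and muscle isoform, 1 to 10 counts, and COX6B2, another testis isoform, 2 to 9 counts per library. COX7A1, the heart and muscle isoform of COX7A, had 8 to 32 counts and passed the filter. COX7B2, a paralog of COX7B best known from testis, had 233 to 474 counts, and its level per kb was 15 ± 2.54 CPM against 146 ± 20.1 for COX7B.

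With both inhibitors together, 24 of 81 tested members rose against DMSO and 0 fell. Across all 15443 genes 6.69% rose and 7.25% fell in this comparison. The rises were small: the log2 fold changes of the 24 ran from 0.17 to 0.51, and the median over the 81 was 0.197 against 0.006 for all tested genes. Complex IV had the largest share, 7 of 13, with a median of 0.331. Complex V had 6 of 18 (median 0.196), complex I 9 of 37 (0.183), complex II 1 of 4 (0.109) and complex III 1 of 9 (0.181). The test was edgeR's quasi-likelihood test with Benjamini-Hochberg adjustment over all genes and a threshold of 0.05. No difference between complexes was tested. None of the 3 genes that are not subunits passed. NDUFA1, NDUFA3, NDUFA8, NDUFB4 to NDUFB6, NDUFS1, NDUFS6, NDUFS8, NDUFA12, NDUFV2, SDHA, UQCRC1, UQCRHL, COX5A, COX5B, COX6B1, ATP5A1, ATP5B, ATP5C1, ATP5H and ATP5J2-PTCD1 were chosen after their values were seen.

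**Figure D1:**
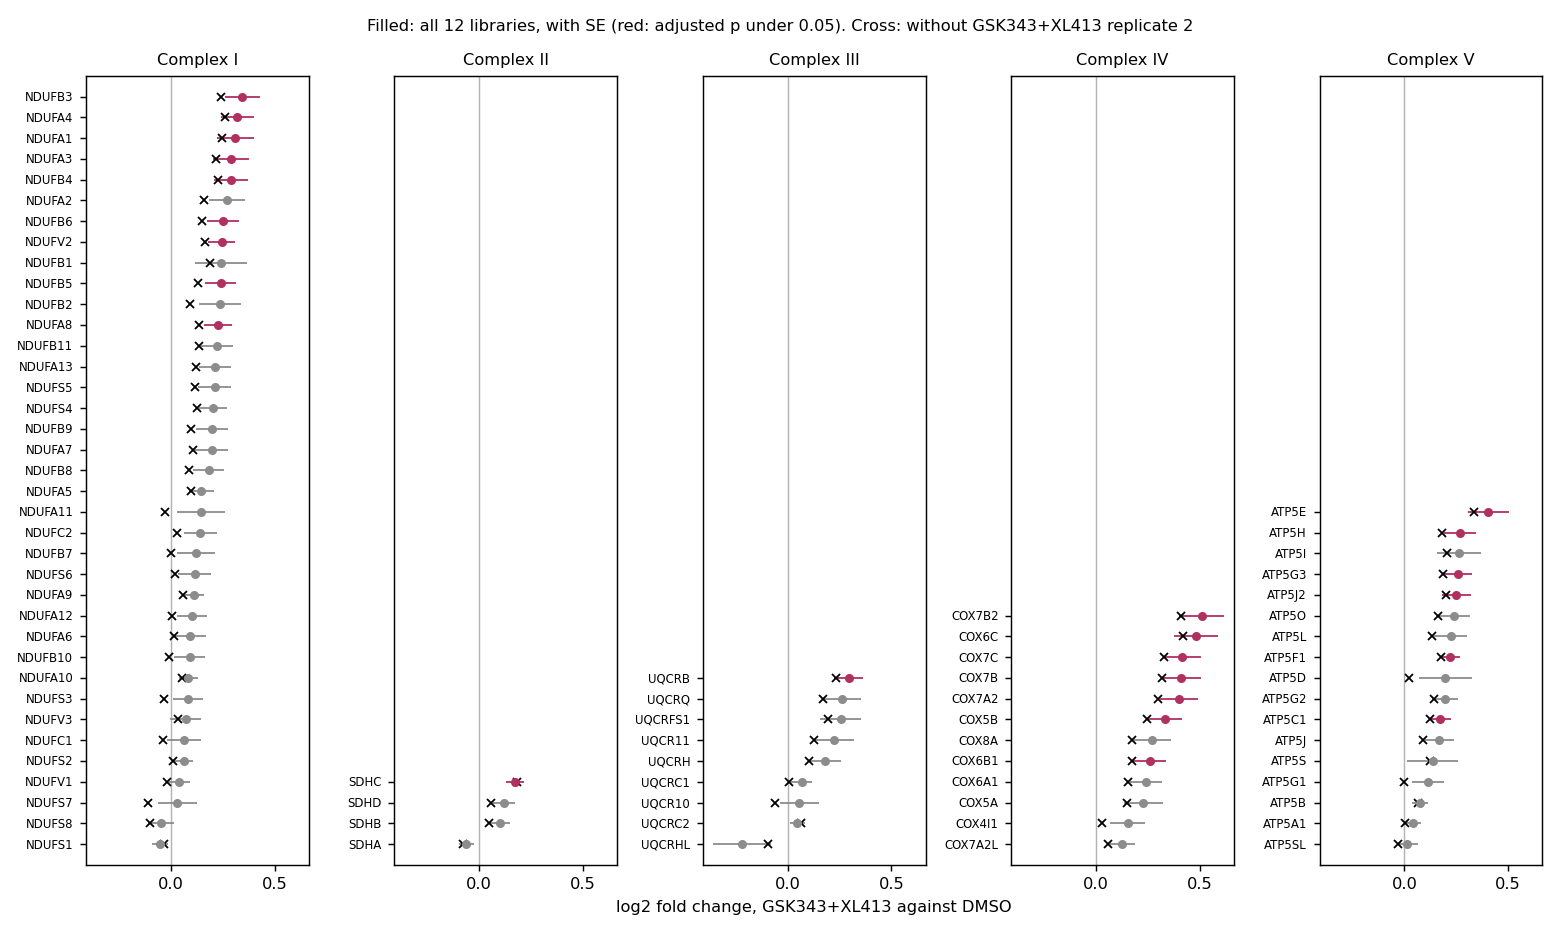
Log2 fold change of GSK343+XL413 against DMSO for the 79 tested members with at least 10 counts in every library, by complex; circles with bars are the value and SE from all 12 libraries, red where the adjusted p was under 0.05, and crosses the value without GSK343+XL413 replicate 2. In complex IV 7 of the 12 drawn members are red, against 9 of 37 in complex I, and most crosses lie closer to 0 than their circles.

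The library that stood apart carried part of this. The members' median, as log2 CPM minus the DMSO mean, was 0.364 in GSK343+XL413 replicate 2, and 0.122 and 0.0941 in the other 2 libraries of the group. The 3 DMSO libraries were at −0.0316, −0.021 and 0.0599. Both other combination libraries thus lay above all 3 DMSO libraries, by less than the distance to replicate 2. So did XL413 replicates 2 (0.155) and 3 (0.112) and GSK343 replicate 1 (0.115). XL413 replicate 1 (0.0295) and GSK343 replicates 2 (0.0501) and 3 (−0.0867) did not. These 2 combination libraries thus lay within the range of the single-compound libraries. Without GSK343+XL413 replicate 2, 16 of 81 members rose, all of them among the 24, and the median was 0.119. In that fit 6.72% of all genes rose and 8.26% fell. By complex the counts without it were 6 of 13 in complex IV (median 0.244), 4 of 18 in complex V, 4 of 37 in complex I, 1 of 4 in complex II and 1 of 9 in complex III. The count also changed when a DMSO library was left out. Leaving out a library outside this comparison changed it too, to 15 without GSK343 replicate 2 and 28 without GSK343 replicate 3. Without DMSO replicate 2 no member passed (the smallest adjusted p was 0.051), and without DMSO replicate 3 only COX7B2 and COX6C did. The log2 fold changes of the 24 then ran from 0.154 to 0.437 and from 0.145 to 0.514. For these fits without a DMSO or GSK343 library the share over all genes is not given here. Whether the members lost more calls than other genes was not tested. In a fit of the 6 DMSO and combination libraries alone 7 members passed, where 2.15% of all genes rose.

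**Figure D2:**
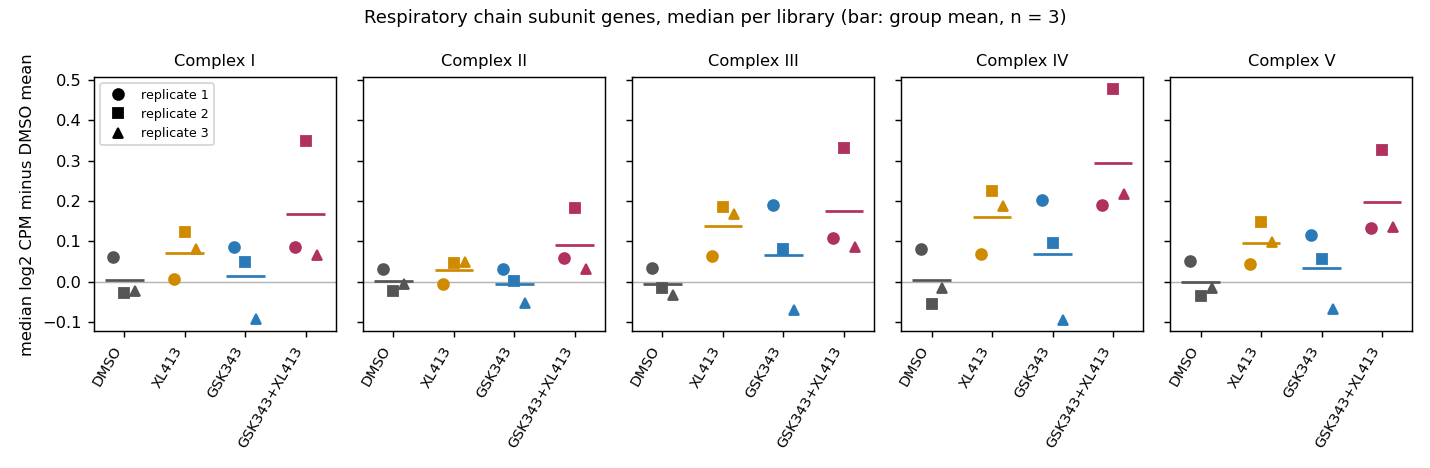
Median over the members of each complex with at least 1 CPM in every library of log2 CPM minus the DMSO mean, per library; symbols are replicates 1 to 3, colours the 4 groups, horizontal bars group means (n = 3). In complex IV the combination libraries sit at 0.19 to 0.479 and the DMSO libraries at −0.0558 to 0.0811, and replicate 2 of the combination is the highest point of every panel.

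Complex IV, cytochrome c oxidase, held the members with the smallest p. COX7C, a small membrane subunit, was at 230.7, 211.2 and 207.5 CPM in the DMSO libraries and at 271.9, 322.4 and 270.1 CPM with the combination. With XL413 alone it was at 223.0, 257.2 and 259.8 CPM, and with GSK343 alone at 265.1, 242.3 and 209.9 CPM. All 3 combination libraries lay above all 9 others, and the single-compound libraries overlapped with DMSO. The log2 fold change of the combination against DMSO was 0.41 (SE 0.09, adjusted p = 0.0109, edgeR), and 0.33 without replicate 2 (adjusted p = 0.0121).

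COX6C, another small membrane subunit, was at 70.35, 62.29 and 68.86 CPM with DMSO and at 88.07, 101.8 and 91.14 CPM with the combination. XL413 alone gave 70.96, 85.12 and 87.91 CPM, and GSK343 alone 86.35, 74.14 and 63.56 CPM. The combination libraries were again the 3 highest of 12. The fold change was 0.48 (SE 0.10, adjusted p = 0.0106), and 0.42 without replicate 2.

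COX7A2, the ubiquitous isoform of COX7A, went from 142.6, 130.8 and 136.1 CPM with DMSO to 170.0, 205.4 and 164.6 CPM with the combination (log2 fold change 0.40, SE 0.09, adjusted p = 0.015). COX7B was at 82.41, 72.55 and 75.01 CPM and at 92.32, 115.0 and 98.07 CPM in the same groups (0.41, SE 0.10, adjusted p = 0.0152). Its paralog COX7B2 was at 8.207, 6.905 and 7.708 CPM with DMSO, 8.749, 9.041 and 8.637 CPM with XL413, 8.858, 8.254 and 6.96 CPM with GSK343 and 9.765, 12.29 and 10.34 CPM with the combination (0.51, SE 0.11, adjusted p = 0.00925). For each of the 3 genes no combination library overlapped with DMSO, and for COX7B2 none overlapped with any other group. The counting divided reads between related genes by estimate, so the split between COX7B and COX7B2 is uncertain where their sequences agree.

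COX5B, a subunit on the matrix side, was at 102.9, 90.56 and 90.63 CPM with DMSO, 104.2, 117.5 and 111.9 CPM with XL413, 110.5, 105.6 and 96.15 CPM with GSK343 and 108.6, 133.7 and 114.9 CPM with the combination (0.33, SE 0.08, adjusted p = 0.0179). The XL413 and combination libraries all lay above DMSO. COX6B1 was the remaining complex IV gene that rose (0.26, adjusted p = 0.0439); without replicate 2 it did not pass (0.18, adjusted p = 0.082). COX4I1, the largest nuclear-encoded subunit, did not pass: it was at 429.4, 399.4 and 391.9 CPM with DMSO and 427.9, 529.6 and 399.4 CPM with the combination, where only replicate 2 lay above every DMSO library (0.15, adjusted p = 0.244, and 0.03 without replicate 2). COX7A1, at 0.363, 0.474 and 0.331 CPM with DMSO and 0.992, 0.623 and 0.516 CPM with the combination, did not pass either (0.85, SE 0.36, adjusted p = 0.134). NDUFA4 carries a complex I name but is known as a subunit that associates with complex IV. It rose as well, from 125.0, 119.6 and 119.6 CPM to 145.7, 164.4 and 144.7 CPM (0.32, SE 0.08, adjusted p = 0.0205; 0.26 without replicate 2).

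**Figure D3:**
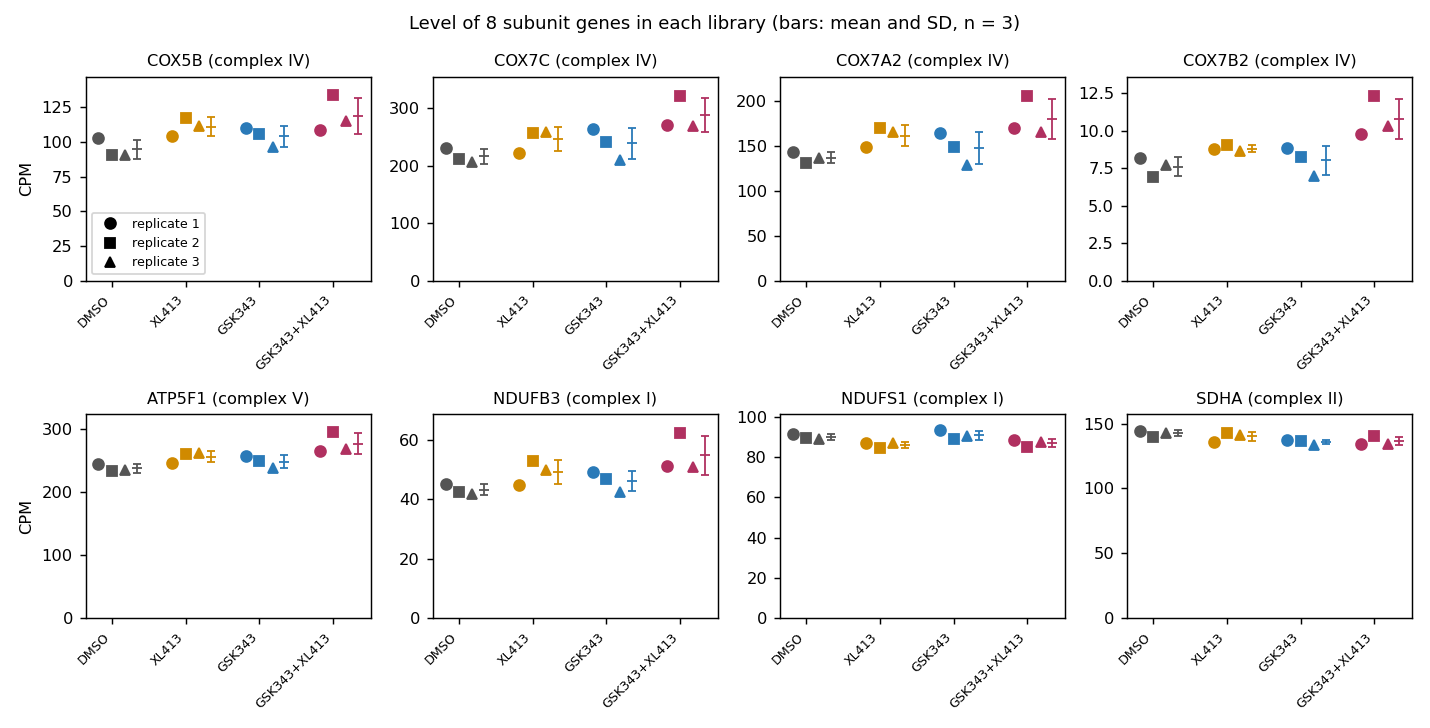
CPM of 8 members in each of the 12 libraries, on axes from 0; symbols are replicates 1 to 3 and bars the mean and SD of 3 libraries. COX5B, COX7C, COX7A2, COX7B2, ATP5F1 and NDUFB3 are higher in the combination than in every DMSO library, whereas SDHA stays between 133.7 and 144.6 CPM and NDUFS1 between 84.42 and 93.21 CPM in all libraries.

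In complex V the 6 genes that rose encode parts of the stalks, the membrane part and the rotor. ATP5F1, subunit b of the peripheral stalk, was at 245.7, 233.5 and 234.9 CPM with DMSO, 246.1, 261.6 and 262.7 CPM with XL413, 257.8, 250.2 and 238.5 CPM with GSK343 and 266.4, 296.5 and 269.4 CPM with the combination. The combination libraries were the 3 highest, and the log2 fold change was 0.22 (SE 0.05, adjusted p = 0.0113; 0.17 without replicate 2). ATP5E, subunit epsilon of the central stalk, was at 210.6, 185.1 and 186.9 CPM with DMSO and 243.2, 282.3 and 244.6 CPM with the combination (0.40, SE 0.10, adjusted p = 0.0185). With XL413 alone it was at 205.9, 247.0 and 243.2 CPM, which overlapped both.

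ATP5J2, subunit f of the membrane part, rose from 212.1, 199.3 and 200.1 CPM to 226.9, 259.4 and 240.7 CPM (0.25, SE 0.07, adjusted p = 0.0319). ATP5H, subunit d of the peripheral stalk (0.27), and ATP5C1, the gamma subunit (0.17), also rose, but neither passed without replicate 2 (0.18, adjusted p = 0.0567, and 0.12, adjusted p = 0.0751). The alpha subunit gene ATP5A1 did not pass, at 536.5, 529.2 and 528.0 CPM with DMSO and 530.8, 576.8 and 531.4 CPM with the combination (0.04, SE 0.04, adjusted p = 0.526). ATP5B was at 1208, 1166 and 1158 CPM and at 1231, 1267 and 1222 CPM (0.07, SE 0.04, adjusted p = 0.184). Of the 3 genes that encode the same mature subunit c of the rotor ring, ATP5G3 rose (0.26, adjusted p = 0.0258), ATP5G2 just missed the threshold (0.20, adjusted p = 0.0514) and ATP5G1 did not pass (0.11, adjusted p = 0.361). ATP5G1 was at 86.46, 82.09 and 84.91 CPM with DMSO and 84.76, 106.0 and 83.26 CPM with the combination, so that only replicate 2 lay above DMSO.

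In complex I, 7 of 29 accessory genes, NDUFA4 aside, rose (median 0.198), and 1 of 7 core genes of the nucleus (median 0.040). Without replicate 2 the counts were 2 of 29 and 1 of 7, and the difference between accessory and core genes was not tested. NDUFB3, a small accessory subunit of the membrane arm, was at 45.25, 42.5 and 41.73 CPM with DMSO and at 51.0, 62.36 and 50.8 CPM with the combination (0.34, SE 0.08, adjusted p = 0.019). XL413 alone gave 44.91, 52.96 and 49.82 CPM and GSK343 alone 49.13, 46.65 and 42.52 CPM, and both overlapped DMSO. NDUFV2, an iron-sulfur subunit of the electron input module, was the core gene that rose, from 107.9, 97.14 and 100.4 CPM to 114.7, 134.5 and 112.5 CPM (0.24, SE 0.07, adjusted p = 0.027). NDUFS1, the largest core subunit, was at 91.64, 89.53 and 89.07 CPM with DMSO and 88.54, 84.97 and 87.24 CPM with the combination (−0.05, SE 0.04, adjusted p = 0.379), so that the combination lay just below DMSO. NDUFS5, the accessory gene with the highest level per kb, did not pass (0.21, adjusted p = 0.0892; 0.11 without replicate 2). The other accessory genes that rose were NDUFA1, NDUFA3, NDUFA8, NDUFB4, NDUFB5 and NDUFB6, with log2 fold changes of 0.23 to 0.31; of these only NDUFA8 passed without replicate 2.

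In complex II, SDHC, the membrane anchor that takes part in ubiquinone binding, rose from 213.3, 203.7 and 205.6 CPM to 230.2, 232.3 and 239.6 CPM (0.17, SE 0.04, adjusted p = 0.019). Replicate 2 was not the highest of its libraries, and the value without it was 0.18 (adjusted p = 0.00903). In a fit with an offset for length and GC content, described below, SDHC did not pass. No complex II gene was above 0.00288 in that fit. With the offset and without replicate 2 together SDHC passed, at 0.084. SDHD, the other anchor, was at 96.31, 95.63 and 97.86 CPM with DMSO and 101.0, 114.8 and 99.07 CPM with the combination (0.12, adjusted p = 0.144). SDHA, the flavoprotein that oxidises succinate, was at 144.6, 140.0 and 142.8 CPM and at 134.4, 140.1 and 134.6 CPM (−0.06, adjusted p = 0.267).

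In complex III, UQCRB, a small ubiquinone-binding subunit, rose from 203.7, 188.2 and 182.6 CPM to 227.5, 254.6 and 221.9 CPM (0.29, SE 0.07, adjusted p = 0.016; 0.24 without replicate 2). UQCRQ, another small subunit, did not pass (0.26, adjusted p = 0.0691), and neither did UQCRH, the hinge protein (0.18, adjusted p = 0.125), or UQCRC1, a large core protein (0.07, adjusted p = 0.383). UQCRHL is a copy of UQCRH without introns, and the division of reads between the 2 is uncertain. It was at 5.966, 6.372 and 5.842 CPM with DMSO, 6.708, 7.855 and 6.921 CPM with XL413, 7.468, 8.686 and 5.962 CPM with GSK343 and 5.518, 4.358 and 5.787 CPM with the combination, which was below every other library. Against DMSO it did not pass (−0.22, SE 0.14, adjusted p = 0.318). ATP5J2-PTCD1, a readthrough gene of complex V, was at 0 in at least 1 library of every group and is given no fold.

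Grouped by role, a grouping made after the values were seen, 3 of 17 genes in a set of core and large subunits rose (median 0.068). The set held the nuclear core of complex I, all of complex II, the large and Rieske proteins of complex III and the alpha, beta and gamma subunits. It is not a set of catalytic subunits only, since it includes the membrane anchors of complex II. The 3 that rose were NDUFV2, SDHC and ATP5C1. Of the 10 ubiquitous complex IV subunits 6 rose (median 0.301). Without replicate 2 the counts were 2 of 17 (median 0.012) and 5 of 10 (median 0.209). Transcript length moved with these values too.

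The members are short: the median length was 753 nt, against 2491 nt over the tested genes with a length (96.8% of all tested). In the comparison of the combination with DMSO, 19 of 52 members under 1000 nt rose (median 0.228) and 5 of 27 longer ones (median 0.091). Spearman's rho between fold change and length was −0.439 across 79 members and −0.325 across 14951 genes, and genes of the same libraries are not independent. Without replicate 2 it was −0.335 across members and −0.122 across genes. A fit with an offset for length and GC content in each library brought it to 0.048 across members. Under that fit 18 members rose, where 8.7% of all genes did, and 2 fell, where 8.92% did (NDUFS8, −0.19, adjusted p = 0.0281, and NDUFA12, −0.10, adjusted p = 0.0428); the median was 0.057. Complex IV then had 8 of 13 higher (median 0.188), complex I 7 of 37, complex V 3 of 18 and complexes II and III none. With the offset and without replicate 2 together, 19 members rose, where 8.46% of all genes did, and 1 fell, where 8.87% did, with a median of 0.05 and again 8 of 13 in complex IV (median 0.175). Of the 24, 10 rose in all 4 of these fits: COX5B, COX6C, COX7A2, COX7B, COX7B2, COX7C, NDUFA4, ATP5E, ATP5F1 and ATP5G3. None of the 10 passed without DMSO replicate 2, and only COX7B2 and COX6C did without DMSO replicate 3. COX5B, ATP5F1 and ATP5G3 did not pass in the fit of only the groups compared, and the others did. What part of the difference goes with length was not tested further.

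**Figure D4:**
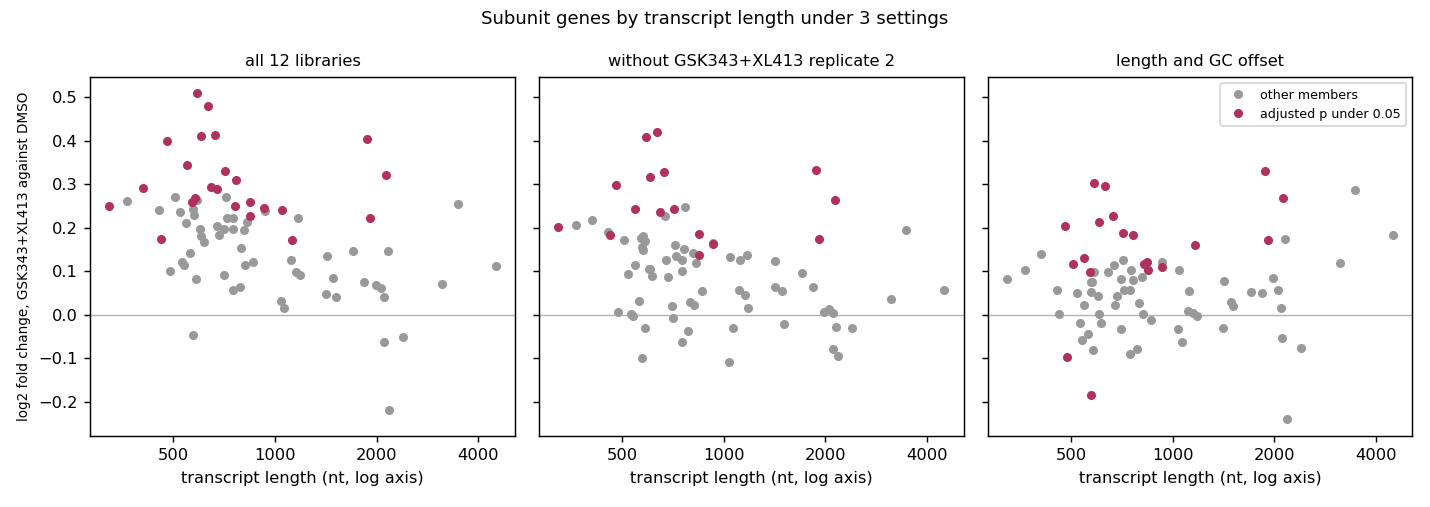
Log2 fold change of GSK343+XL413 against DMSO against transcript length (log axis) for 79 members under 3 settings; red points passed the test. With all 12 libraries the short genes lie higher (rho −0.439), and with the offset rho is 0.048.

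With XL413 alone the estimates were small and mostly above 0, and none passed the test. In edgeR 0 of 81 rose and 0 fell, where 0.278% of all genes rose and 0.149% fell; DESeq2 and limma-voom also called 0. At an unadjusted p under 0.05 there were 13 members, all higher (16.0%, against 13.7% of all genes in either direction). The median was 0.102, against −0.007 over all genes, and it was 0.188 in complex IV, 0.141 in complex III, 0.112 in complex V, 0.077 in complex I and 0.030 in complex II. In 19 members all 3 XL413 libraries lay above all 3 DMSO libraries, where 11.9% of all genes did so, and in 2 below, where 16.2% did. COX5B had the smallest p (0.23, SE 0.08, adjusted p = 0.231). It passed when GSK343+XL413 replicate 2 was left out of the shared fit (0.24, adjusted p = 0.0321) and with the offset (0.17, adjusted p = 0.0294). In each of these fits it was the 1 member of 81 called, where 2.27% and 1.85% of all genes rose. With both changes 5 members passed, where 4.67% of all genes rose, so these counts are near the share over all genes. A fit of the 6 libraries of these 2 groups alone called 18 members, all higher, where 4.27% of all genes rose.

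With GSK343 alone no member passed either. In edgeR 0 of 81 rose, where 0.725% of all genes rose, and 0 fell, where 0.44% did; DESeq2 and limma-voom called 0, and 0 members had an unadjusted p under 0.05, against 14.3% of all genes. The median was 0.030, with 54 of 81 estimates above 0. In 1 member, NDUFB5, all 3 libraries lay above DMSO, where 11.2% of all genes did so, and in 3 members all lay below, where 14% did. The 3 GSK343 libraries differed among themselves: their medians over the members were −0.0867, 0.0501 and 0.115, a wider span than that of the 3 DMSO libraries. For the combination the count above DMSO was 45 of 81 members, where 16.3% of all genes did so, and 2 members lay below, where 17.4% did. The 3 comparisons share the DMSO libraries, so their values are not independent.

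Set against the single compounds, no member passed in edgeR. Against XL413 alone 0 of 81 rose, where 0.557% of all genes did, and the median was 0.099, or 0.0096 without replicate 2. DESeq2 and limma-voom called 0, and 7 members, 6 of them higher, had an unadjusted p under 0.05 (8.64%, against 15% of all genes). Against GSK343 alone 0 rose, where 0.648% of all genes did, the median was 0.161 (0.084 without replicate 2), and 40 members, 39 of them higher, had an unadjusted p under 0.05 (49.4%, against 20.4% of all genes). There DESeq2 called 4 members higher and 1 lower and limma-voom 0, where DESeq2 called 2.01% of all genes higher and 1.74% lower. COX7B2 (0.43, adjusted p = 0.0161 in DESeq2), COX5A, COX6C and COX7A2 were higher and UQCRHL lower (−0.50, adjusted p = 0.0271 in DESeq2). The interaction, the effect of GSK343 with XL413 minus that without it, gave 0 members, where 0.0% of all genes rose, and 0 by DESeq2 and limma-voom. At an unadjusted p under 0.05 it held 1 member (1.23%, against 2.67% of all genes), UQCRHL (−0.74, SE 0.19, adjusted p = 0.989). The interaction median was 0.066, and −0.019 without replicate 2.

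Other genes of the same pathway were counted from lists. The shares over all genes, 6.69% higher and 7.25% lower with the combination, or 6.72% and 8.26% without replicate 2, apply to each. Of 49 assembly factors, 6 rose and 1 fell (median 0.069), but 3 rose and 3 fell without replicate 2 (median 0.033). COX17, the copper chaperone of complex IV, was at 61.06, 52.28 and 55.77 CPM with DMSO and 72.88, 86.82 and 74.46 CPM with the combination (0.47, SE 0.09, adjusted p = 0.00565), and it passed in all 12 fits that left out 1 library. TIMMDC1 (0.23) and TMEM126B (0.26), both assembly factors of complex I, rose too, and were at 0.14 and 0.20 without replicate 2. Of 7 further subunit genes that the name pattern misses, 2 rose: C14orf2 (0.35, adjusted p = 0.0232) and USMG5 (0.31, adjusted p = 0.0306), both small subunits of the ATP synthase membrane part. USMG5 did not pass without replicate 2 (0.22, adjusted p = 0.0508).

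Regulators of mitochondrial biogenesis and factors of mitochondrial DNA made up a further list, with the mitochondrial ribosome counted apart below. Of 24 biogenesis regulators and mitochondrial DNA factors, 0 rose and 4 fell with the combination (median −0.015), and 1 rose and 4 fell without replicate 2, against 6.69% and 7.25% of all genes with it. POLG, the mitochondrial DNA polymerase, was at 61.33, 61.23 and 61.58 CPM with DMSO and 50.25, 44.64 and 50.57 CPM with the combination (−0.34, SE 0.05, adjusted p = 0.00129). C10orf2, the mitochondrial helicase Twinkle (−0.25, adjusted p = 0.00555), and POLRMT, the mitochondrial RNA polymerase (−0.21, adjusted p = 0.00632), fell as well. All 3 passed in each of the 12 fits that left out 1 library. With the length and GC offset 0 of the 24 rose and 4 fell, where 8.7% and 8.92% of all genes did. The lowest log2 fold change of the list was then −0.236, so the fall of POLG was smaller in that fit. With the single compounds POLG lay between, at 55.53, 53.19 and 54.49 CPM with XL413 and 54.21, 56.08 and 54.55 CPM with GSK343, below every DMSO library, but passed in neither (adjusted p = 0.142 and 0.145). When GSK343+XL413 replicate 2 was left out of the shared fit it passed in both (−0.17, adjusted p = 0.0112, and −0.16, adjusted p = 0.0114).

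Of 18 genes of the citric acid cycle and pyruvate oxidation, 1 rose and 1 fell with the combination (median 0.0094), shares near those over all genes. IDH2, the mitochondrial NADP-dependent isocitrate dehydrogenase, was at 19.9, 18.88 and 18.88 CPM with DMSO, 23.71, 25.87 and 23.15 CPM with XL413, 21.95, 20.53 and 19.51 CPM with GSK343 and 24.99, 24.88 and 23.84 CPM with the combination. It rose with the combination (0.35, SE 0.06, adjusted p = 0.00321) and with XL413 alone (0.33, SE 0.06, adjusted p = 0.0297); the second call held in 6 of 12 fits that left out 1 library. CS, citrate synthase, fell by 0.135 on the log2 scale (adjusted p = 0.0225). Of 77 mitochondrial ribosomal protein genes 7 rose (median 0.074), but 2 rose and 3 fell without replicate 2, and 2 rose and 9 fell with the length and GC offset. Of 82 tested cytosolic ribosomal protein genes, which are also short, 41 rose and 1 fell (median 0.227), 27 and 1 without replicate 2 (median 0.155), and 41 and 2 with the offset (median 0.100), where 8.7% and 8.92% of all genes rose and fell.

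Members that rose with the combination were found both with and without the promoter strings shown above. Among 64 tested members with a promoter entry, 4 of 13 with the NRF1 core rose (median log2 fold change 0.171) and 13 of 51 without it (0.203). For the ETS string the counts were 4 of 19 (0.223) and 13 of 45 (0.183), and for the YY1 string 2 of 11 (0.168) and 15 of 53 (0.213). With at least 1 of the 3, 9 of 33 rose (0.203), and with none 8 of 31 (0.146). These are counts in this window only. In bulk RNA, a change in the amount of a transcript per cell and a change in which cells are present cannot be told apart.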

How the data were processed

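RNA of A375 cells was measured in 12 libraries, 4 groups of 3. Per the labels' protocols the libraries were poly-A selected and strand-specific. Per the submitters' processing notes the tools were Bowtie2 2.1.0 and RSEM 1.2.15 with hg38; for the annotation and the counting's strand setting, none is given in the sources used here. The authors deposited expected counts per gene, estimates in which reads that fit several genes are shared out.

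Values were rounded to integers and fitted with edgeR 4.0.16 (R 4.3.3): filterByExpr (minimum count 10, minimum total 15), TMM scaling, 1 coefficient per group, all 12 libraries together (8 residual degrees of freedom), the quasi-likelihood test and Benjamini-Hochberg adjustment over 15443 genes. Genes were called at an adjusted p under 0.05. The fits were tested on simulated counts drawn with the same spread for all genes and no trend with length. That test does not show how they behave under the departures with length seen here. CPM are scaled by TMM. Depth was 31553205 to 39079931 expected counts per library. Lengths, GC content and positions came from GENCODE 29 (GRCh38); 68 members matched by name and 18 by an older symbol. No library of a group repeated another within counting noise (chi-square per degree of freedom 2.39 to 37.0).

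The members and the gene lists were chosen with earlier results of these data known, so no list was given a test. Genes were named by rule: in each contrast up to 6 called members per direction with the smallest p; in each complex the highest per kb and the 2 with the smallest p against DMSO; the tissue isoforms and the subunit c genes as groups; and in 4 other lists up to 3 genes of smallest p per contrast. Alternatives were other scalings and filters, DESeq2 1.42.0, limma-voom (limma 3.58.1), a fit of only the groups compared, the replicate number as a block, an offset for length and GC content, and leaving out each library.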

Additional observations from a re-analysis of the deposited data

How the results depend on the processing

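In the comparison of GSK343+XL413 with DMSO the count of members called, 24, was 24 with RLE scaling, 30 with upper quartile scaling, 29 without a filter, 30 with a filter of 5 CPM in 3 libraries, 33 with DESeq2 and 23 with limma-voom. It was 7 in a fit of only the groups compared and 0 to 35 when 1 library was left out. It was 0 without DMSO replicate 2, 2 without DMSO replicate 3, 15 without DMSO replicate 1, 15 without GSK343 replicate 2 and 16 without XL413 replicate 2 or GSK343+XL413 replicate 2. The median log2 fold change, 0.197, ran from 0.119 to 0.238 in those fits, and was 0.0569 with the length and GC offset, 0.0569 with the replicate block and the offset, and 0.05 with the offset and without GSK343+XL413 replicate 2. The log2 fold change of SDHC was −0.0007993 (adjusted p = 0.994) with the replicate block and the offset. Across all genes 6.69% rose in the fit of 12 libraries, 2.15% with only the groups compared and 6.72% without GSK343+XL413 replicate 2. For the other counts of members above, the share over all genes is not given here. Whether those counts moved with it was not tested. For XL413 against DMSO the count, 0, became 18 with only the groups compared, 1 with the offset (1.85% of all genes), 5 with the offset and without GSK343+XL413 replicate 2 (4.67% of all genes), and 0 to 1 when 1 library was left out (median 0.0874 to 0.143). For GSK343+XL413 against GSK343 it became 5 with DESeq2. Leaving out 1 library gave 0 to 0 calls for GSK343 against DMSO (median −0.0218 to 0.0914), for the combination against XL413 (0.00959 to 0.136) and against GSK343 (0.0836 to 0.204), and for the interaction (−0.019 to 0.107). The causes of these changes were not tested.

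Replicate numbers did not pair the libraries: the 18 correlations of deviations between libraries with the same number ran from −0.289 to 0.352, and 4 of 12 libraries correlated best with their own number. With the replicate block 25 members were called against DMSO with the combination, 21 of them among the 24. The share over all genes in that fit is not given here. At these depths COX7A1, with 8 to 32 counts per library, and the isoforms below it limit what can be seen.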
